A study of Mus musculus with 2 samples.

Results

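The cells described here are the mouse tumour cells that carried the most transcript of 5 genes, Gpr137b, Epb41l4aos, Snhg12, Snhg6 and Gadd45a. They are the 581 cells in the top 10% of 5810 tumour cells by the summed UMI counts, each scaled to the cell's total (CPM, defined below), of those genes, out of 9747 barcodes in all, and are called members below. The other 5229 tumour cells are what they are set against. A barcode was taken as a tumour cell when it held at least 500 genes, under 15% mitochondrial transcripts, at least 3 unique molecular identifiers (UMIs, each standing for 1 captured transcript) of the keratin genes Krt8 and Krt18 together, and 0 UMIs of the leukocyte gene Ptprc. A CPM value here is the UMIs of a gene per 1000000 gene UMIs of the cell or cells summed, with no correction for transcript length, so levels are compared between groups of cells and not between genes.

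The tumours come from a study titled for inhibitors of ACSS2, the enzyme that makes acetyl-CoA from acetate, in triple negative breast cancer. The labels give a strain written as NGS mouse, tumour as the tissue, and 6 samples on a single droplet lane, 3 treated with ACSS2i and 3 with vehicle. The series' design text names Bmal1 status, which no label gives for these samples. No age, cell line or dose is stated in the labels used here. Each sample carries 1 of 6 antibody tags, named D0, D1, D4, U2, U3 and U4, and the labels do not say which tag had which treatment. No comparison of ACSS2i with vehicle was therefore made, and both groups of cells below hold cells of both treatments. The comparison is between members and other tumour cells of the same tag, over 6 tags.

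Gadd45a is an inhibitor of growth that is induced by DNA damage and by many other stresses. Snhg6 and Snhg12 are host genes of small nucleolar RNAs: the small RNAs are cut from their introns, and the spliced remainder is usually translated only briefly and destroyed by nonsense-mediated decay, so that such RNAs build up when translation slows. Gpr137b encodes a membrane protein of the lysosome that takes part in mTORC1 signalling. The integrated stress response lowers translation through phosphorylation of the initiation factor eIF2 and raises the transcription factor ATF4, which turns on genes of amino acid supply and the factors Ddit3 (CHOP) and Trib3. A second program, driven by NRF2, answers oxidative stress with genes of glutathione synthesis, iron storage and haem breakdown.

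The sequences below show matches to a response element before the starts of genes listed as targets of the integrated stress response. The response element bound by C/EBP and ATF factors, TGATGNAAN, was searched on both strands in the 250 bases before each gene start (RefSeq, GRCm38.p6). It was found in 9 of the 29 listed stress response genes with a promoter entry and in 3.44% of all 32851 promoters. A listed gene counted if any of its entries matched, while the share is over single entries, so these figures are on unlike units. Those of Asns (asparagine synthetase), Atf3 (a stress-induced transcription factor), Slc7a11 (the cystine transporter), Aars (alanyl-tRNA synthetase), Nupr1 (a stress-induced nuclear protein) and Vldlr (a lipoprotein receptor), which rose in members (values below), are printed on the gene's strand, the match in capitals. Slc7a11 had a second match nearer its start. Of the genes with a match that are not printed, Chac1 (0.56) and Gars (0.081) did not pass (adjusted p = 0.0794 and 0.672 by edgeR). Fgf21 was not tested.
Asns (chr6:7693210-7693248, minus strand): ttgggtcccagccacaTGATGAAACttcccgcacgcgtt
Slc7a11 (chr3:50443655-50443695, minus strand): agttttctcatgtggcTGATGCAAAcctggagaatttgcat
Aars (chr8:111033713-111033753, plus strand): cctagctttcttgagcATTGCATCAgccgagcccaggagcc
Atf3 (chr1:191183420-191183460, minus strand): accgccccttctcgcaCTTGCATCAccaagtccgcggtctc
Nupr1 (chr7:126625557-126625597, minus strand): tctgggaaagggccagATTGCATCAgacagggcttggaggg
Vldlr (chr19:27216803-27216843, plus strand): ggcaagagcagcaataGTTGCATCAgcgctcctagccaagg
In the last 4 the match is on the opposite strand, so the capitals read as its reverse complement. The same letters were not found in these windows of Ddit3, Trib3, Gadd45a or Snhg12, and promoters of Gpr137b, Snhg6 and Epb41l4aos are not shown. A match is a description of the sequence and not evidence of binding.

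By the GENCODE M21 annotation of GRCm38, whole gene spans given, Snhg12 (ENSMUSG00000086290) lies on chromosome 4 from 132308623 to 132311024, plus strand. Its span holds the annotated small nucleolar RNA genes Snora16a, Snora44, Snora61 and Snord99. Snhg6 (ENSMUSG00000098234, chromosome 1, 9941959 to 9944118, minus strand) holds Snord87. Epb41l4aos (ENSMUSG00000087590, chromosome 18, 33794892 to 33795986, plus strand), a long non-coding RNA, holds the small nucleolar RNA gene Gm23639. Gadd45a (ENSMUSG00000036390) lies on chromosome 6 from 67035096 to 67037457, and Gpr137b (ENSMUSG00000021306) on chromosome 13 from 13357620 to 13394014, both on the minus strand. Snhg6 overlaps the opposite-strand gene Mcmdc2 by 127 bases and Gadd45a overlaps E230016M11Rik by 859 bases, and Ddit3, a gene of the results, overlaps Mars by 68 bases; whether counting used the strand is not stated in the labels. Gpr137b also has a pseudogene, Gpr137b-ps, whose reads could be counted with it.

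The choice of cells fixes that all 5 genes are high in members, so their levels are given with no test. Summed over all members, Snhg6 was at 313 CPM against 84.8 CPM in the other tumour cells, Snhg12 at 270 against 63.0, Epb41l4aos at 210 against 41.9, Gpr137b at 192 against 19.0, and Gadd45a at 183 against 38.1. No single gene made the score: Snhg6 gave 26.8% of the UMIs of the 5 genes in members and Gadd45a, the least, 15.7%. All 5 genes were seen in 359 members (61.8%) and in 576 of the 5229 other tumour cells. The summed CPM was at least 718.2 in members, with a median of 1049, and at most 718.0 in the others, with a median of 218. The ranking had no gap at the limit: the 20 members just inside it lay between 718 and 727 CPM and the 20 cells just outside it between 702 and 718 CPM.

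**Figure D1:**
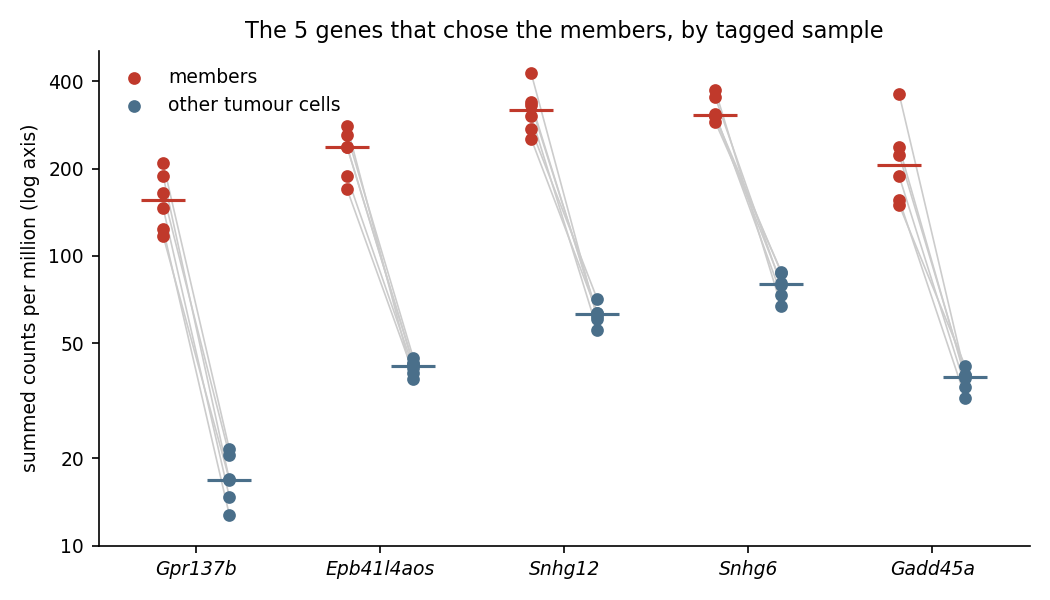
Summed CPM (log axis) of the 5 genes that chose the members, in members (red) and other tumour cells (blue) of each of 6 tagged samples; lines join the cells of a sample and bars mark medians. Gadd45a in members ran from 150 to 362 CPM, and in the other tumour cells from 32.5 to 41.6 CPM.

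Each of the 5 genes was then tested in cells chosen by the other 4. It had no part in that choice, but the 5 were chosen as a set with earlier results of these data known. Gpr137b had 96.8, 120 and 190 CPM (lowest, median and highest of 6 tags) in the chosen cells, against 14.7, 18.8 and 25.02 CPM in the other tumour cells. The groups did not overlap, and the log2 fold change was 2.85 ± 0.13 (SE; adjusted p = 6.6e-10 by edgeR's quasi-likelihood test). It was the largest of all genes tested in that fit, in which 35.1% were called. Gadd45a had 123, 181 and 328 CPM in the chosen cells, against 34.1, 39.9 and 45.2 CPM in the others, again without overlap (2.33 ± 0.13, adjusted p = 5.3e-09). Epb41l4aos rose by 2.25 ± 0.12, Snhg12 by 2.25 ± 0.11 and Snhg6 by 1.94 ± 0.13 on the log2 scale. In these fits 36.6%, 37.7% (19.8% lower) and 36.0% of all genes were called, and 36.3% in that of Gadd45a. The adjusted p of these 3 ran from 2.4e-09 to 1.6e-07, and each was higher in 6 of 6 tags. The 5 genes ranked 1 to 14 by fold change in their own fits. All 5 scores divide by the same gene UMIs of the cell, and the chosen cells are mostly the members. Neither the joint rise nor these p-values are therefore independent support. Of the 581 cells in each choice, 504 to 517 were also members.

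Members were shallower than the other tumour cells. The median member held 19319 gene UMIs and 3700 genes, against 26570 UMIs and 4657 genes. By tag, the median gene UMIs per cell were 18035, 21024 and 25395 (lowest, median, highest) in members and 23188, 24987 and 31220 in the others. They were lower in members in 6 of 6 tags, as were genes per cell. The score divides by the gene UMIs of the cell, so depth is part of the choice of members and is given with no test. The mitochondrial share was 3.27% in members and 3.78% in the others, and did not pass (lower in 5 of 6 tags, p = 0.125 by the two-sided exact permutation test over tags). Ranked by depth in 10 deciles of 581 tumour cells, the shallowest held 18.8% members, the next 22.4% and the deepest 3.61%. Selected results below are also given with members taken as the top 10% within 20 bins of equal depth, and 424 of those 590 cells were the same as here.

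Fewer members than other tumour cells carried a tag, in counts of cells of 1 pool with no test over samples. The intervals cover counting error of cells only. No tag was found on 292 members (50.3%, exact 95% interval 46.1 to 54.4), against 29.9% (28.6 to 31.1) of the other tumour cells. A single tag was found on 251 members (43.2%) and 3149 others (60.2%), and more than 1 tag, the sign of a doublet, on 6.54% of members (4.67 to 8.87) and 9.91% of others (9.11 to 10.7). Of the cells with 1 tag, members had a median of 112 UMIs of that tag and the others 180. This was lower in 5 of 6 tags and did not pass (p = 0.0625, exact permutation test). Members were also shallower, and the part of depth in the staining was not tested. Tests below use cells with 1 tag, and untagged cells are described beside them.

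Every tagged sample held members. They made up 12.6% of the tumour cells tagged U3 (19 of 151 cells, interval 7.75 to 19.0), 11.3% of D4 (18 of 160, 6.81 to 17.2), 9.58% of D0 (16 of 167, 5.58 to 15.1), 9.05% of U4 (20 of 221, 5.62 to 13.6), 6.93% of D1 (71 of 1024, 5.45 to 8.67) and 6.38% of U2 (107 of 1677, 5.26 to 7.66). Neighbours in that order did not differ beyond their intervals, which cover counting error only. The shares hold for cells with 1 tag: with untagged cells given to their strongest tag D0 was at 17.9%, outside its interval, and with depth bins D1 was at 10.5%. Values of members in U3, U4, D0 and D4 rest on 16 to 20 cells and 306441 to 456582 gene UMIs, so 1 UMI there is 2 to 3 CPM.

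**Figure D2:**
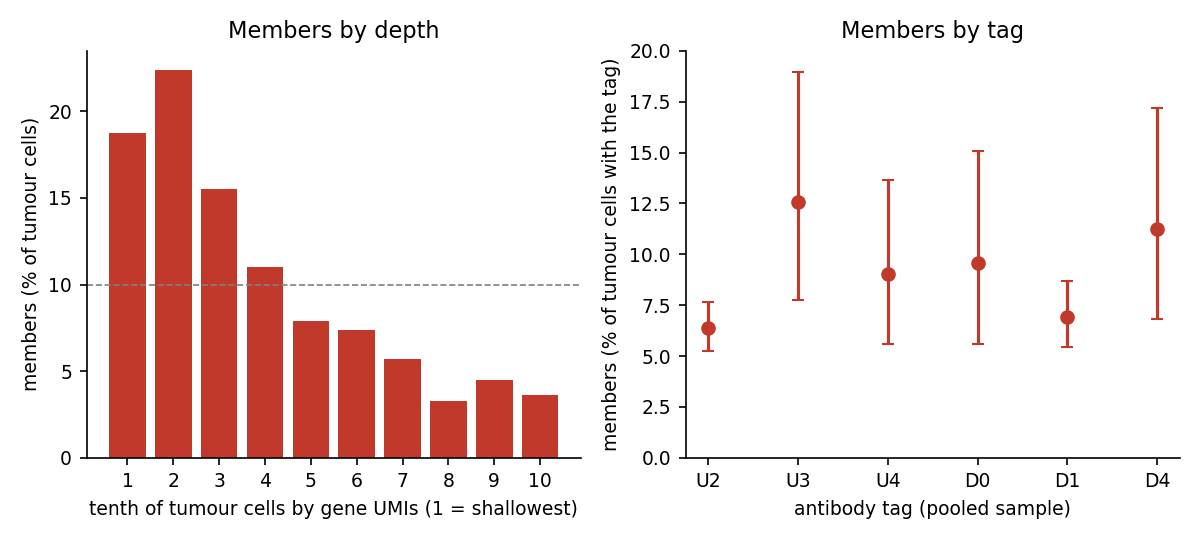
Left, percent of tumour cells that were members in each decile of gene UMIs per cell, with a dashed line at 10%; right, percent of tumour cells of each antibody tag that were members, with exact 95% intervals. Members were 18.8% of the shallowest and 3.61% of the deepest decile, and between 6.38% and 12.6% of the cells with 1 tag; with untagged cells given a tag D0 was at 17.9%.

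The gate that names these cells tumour cells rests on 2 keratins, and the defining epithelial markers Epcam and Krt19 had 0 UMIs in members (5 and 13 in the other tumour cells). Sox9, a transcription factor of progenitor and breast tumour cells, was at 906 CPM in members and 740 CPM in the others, and the stromal gene Dcn at 2143 against 2666. Markers of other cells were near 0: the 6 T cell markers summed to 2.52 CPM in members and 4.31 in the others, the 6 macrophage markers to 14.4 and 15.2, the 5 NK cell markers to 1.63 and 2.44, the 4 B cell markers to 0.244 and 0.453, and the 5 endothelial markers to 6.35 and 7.09. Dendritic cell markers were at 5.13 against 19.3 CPM and erythroid markers at 1.87 against 31.0. Fibroblast markers, mostly Dcn, were at 2305 against 3168; of the 5, Dcn, Col3a1 and Col1a1 were lower in members, while Col1a2 and Pdgfra (13.8 against 13.1 CPM) were higher. The 4 neutrophil markers went the other way, at 35.2 CPM in members (by tag 0 to 230) and 8.07 in the others (3.27 to 14.6), higher in 5 of 6 tags. All 4 were higher in members: S100a8 was at 33.8 against 7.45 CPM, S100a9 at 1.14 against 0.580, the receptor gene Csf3r at 0.163 against 0.0333 and Retnlg at 0.163 against 0.0133, the last 2 on 2 UMIs each in members. Cd68, a lysosomal protein best known from macrophages, rose, with 10.8, 26.5 and 38.8 CPM (lowest, median, highest tag) in members, against 1.49, 4.50 and 8.03 CPM in the others (2.22 ± 0.32, adjusted p = 8.7e-05). The part of other cells' RNA in the results below was not tested beyond leaving out cells with 2 or more macrophage marker UMIs, which kept the sign of the fold change of every gene whose fold change is given in the text; Junb was no longer called (adjusted p = 0.152 by edgeR) and Top2a was then called lower (adjusted p = 0.0155).

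Across all genes, edgeR called 3405 of 9387 genes at an adjusted p under 0.05 (36.3%), 1565 of them higher in members (16.7%) and 1840 lower (19.6%). The median log2 fold change of all genes tested was -0.029. Each count of list genes called below is to be read beside these shares and this median. Of the 30 lists, 8 were added after values were seen. They are the ribosomal protein, sterol, iron, FoxO, autophagy, matrix, type I interferon and lipid droplet lists. With members chosen within depth bins the calls were 1366 higher and 1370 lower of 9626 genes (28.4%), and of the 3405 genes 74.7% were called in the same direction and none in the opposite one. The tag with the most cells, U2, carries much of the count: without it 1030 genes were higher and 1220 lower. With untagged cells given to their strongest tag, 2783 were higher and 2749 lower.

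Among called genes with at least 20 CPM over all tumour cells and the same direction in 6 of 6 tags, those that rose most in members were Hist1h4i, Hmox1, Ddit3, Enpp2, 5430416N02Rik, Gclc, Ifi207, Ftl1, Abca1, Crebrf, Nfil3 and Plin2, in that order of fold change. Those that fell most were Col1a1, Rrm2, Ssc5d, Slurp1, Tk1, Gm2115, Ogn, Idi1, Cd248, Gprin3, Pclaf and Hist1h1b. All 24 had the same direction in the untagged cells as well. Genes outside this rule could have larger fold changes, as S100a8 did (2.85). In 10 of the first 12 and 11 of the second 12 the tags of members did not overlap those of the others, against 5.29% and 12.6% of all genes tested, but the rule favours such genes. Hist1h4i, a histone H4 gene whose copies are near-identical, so that its reads are uncertain, stood highest in 1 tag, U4 (1667 CPM in members, against 20.2 CPM in the others), and without U4 its log2 fold change was 1.84.

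**Figure D3:**
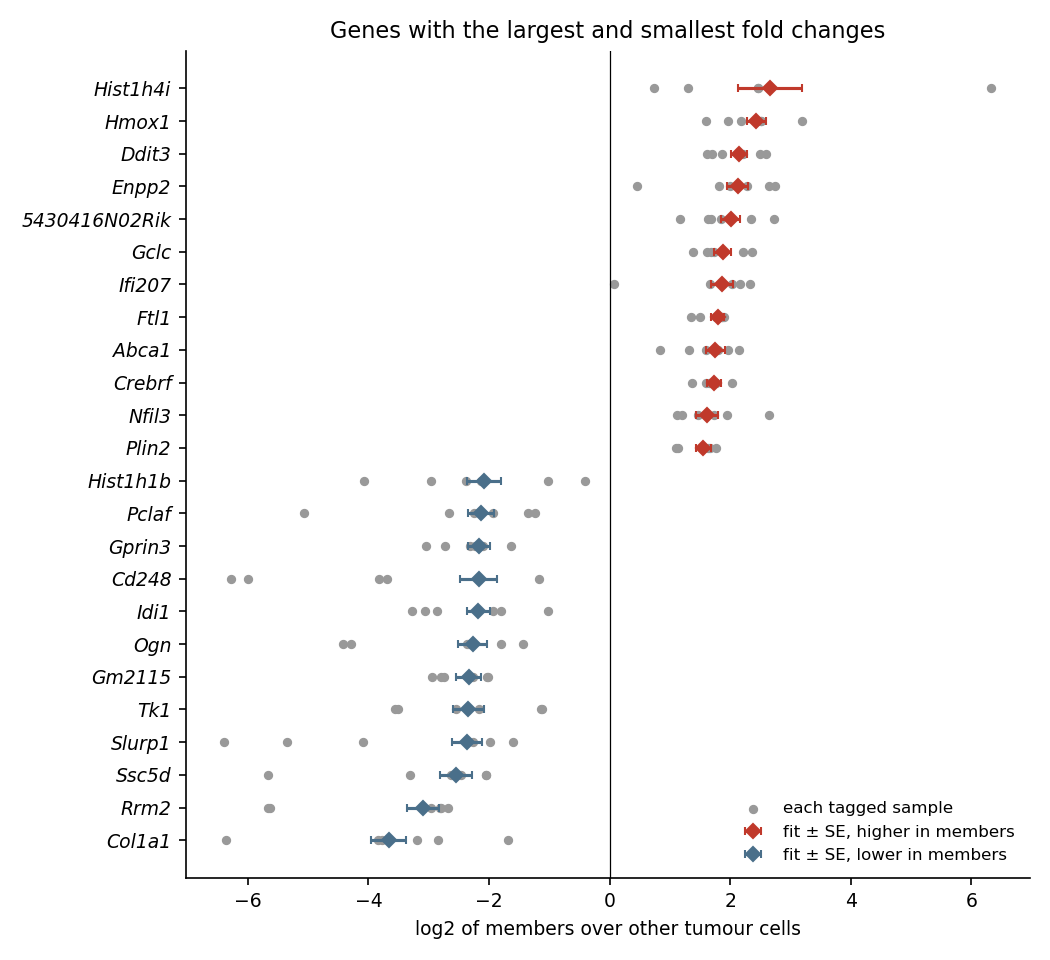
Log2 ratio of members to other tumour cells for the 12 genes with the largest and the 12 with the smallest fold change among called genes with at least 20 CPM and the same direction in 6 of 6 tags; grey points are the 6 tagged samples (0.5 CPM added to both values), diamonds the edgeR fit with its SE. Hmox1 lies at 2.43 and Col1a1 at -3.66, and Hist1h4i has 1 sample at 6.33.

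Genes of the integrated stress response were higher in members. Of 29 target genes tested, 19 rose and none fell (median log2 fold change 0.56), beside the 16.7% and 19.6% of all genes. Ddit3, which encodes the stress factor CHOP, had 324, 388 and 546 CPM (lowest, median, highest tag) in members, against 53.4, 111 and 117 CPM in the other tumour cells. Every tag of members lay above every tag of the others, and the log2 fold change was 2.15 ± 0.13 (adjusted p = 6.3e-08). Trib3, a pseudokinase induced by ATF4 and CHOP, had 23.3, 36.1 and 41.6 CPM in members and 6.31, 7.40 and 10.4 CPM in the others (2.14 ± 0.18, adjusted p = 6.95e-07), also without overlap. Atf4 itself had 328, 364 and 424 CPM in members, against 182, 238 and 255 CPM (0.79 ± 0.11, adjusted p = 5.0e-05), and the groups were apart.

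The transcription factor gene Cebpb, a partner of ATF4, had 849, 1051 and 1251 CPM in members and 453, 529 and 720 CPM in the others (1.99-fold, adjusted p = 1.18e-06). Slc3a2, the heavy chain of amino acid transporters, had 258, 283 and 348 CPM in members and 113, 134 and 146 CPM in the others (1.22 ± 0.10). Neither pair of groups overlapped. Its partner Slc7a11 had 0, 11.1 and 71.0 CPM in members and 1.78, 3.73 and 5.64 CPM in the others; it was higher in 5 of 6 tags and rose by 2.06 ± 0.30 (adjusted p = 8.9e-05). Aars (0.65 ± 0.14), Vldlr (0.40 ± 0.12), Nupr1 (0.31 ± 0.10) and Atf3 (0.44 ± 0.15) rose by less in the fit over tags, with overlapping groups. Vldlr, Nupr1 and Atf3 did not pass with members chosen within depth bins (adjusted p = 0.084, 0.0772 and 0.0617 by edgeR). Without U2 the adjusted p of Vldlr was 0.0897, and that of Atf3 without U3, U4, D0 or D4 ran from 0.0585 to 0.117. Atf3 was higher in members in 4 of 6 tags, but in U2 it was at 262 CPM in members and 358 CPM in the others. Summed over all members Atf3 was at 254 CPM, against 281 CPM in the other tumour cells, and Nupr1 at 967 against 980 CPM. Untagged members also had less of both, Atf3 at 228 against 247 CPM and Nupr1 at 854 against 954 CPM. Crebrf and Nfil3, which did not enter the list, rose by 1.74 ± 0.12 and 1.61 ± 0.18. CREBRF is a regulator of the unfolded protein and nutrient stress responses, and NFIL3 a transcriptional repressor tied to the circadian clock.

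Genes of amino acid supply were less uniform. Mthfd2, of mitochondrial folate metabolism, rose with 65.3, 93.9 and 110 CPM in members, against 38.7, 46.4 and 51.1 CPM (1.08 ± 0.13). Asns rose by 0.89 ± 0.14 and was higher in 5 of 6 tags, but in untagged cells it was at 26.8 CPM in members and 36.0 CPM in the others. The serine synthesis genes Phgdh and Psat1 did not pass in tagged cells (adjusted p = 0.0804 and 0.481 by edgeR), though Phgdh was called lower without U4 (-0.38, adjusted p = 0.0199) and under 7 other settings. In untagged cells Phgdh was at 41.7 CPM in members and 126 CPM in the others, and Psat1 at 14.2 and 40.4 CPM. Psph, the last enzyme of that path, rose in tagged cells by 0.53 ± 0.13, and untagged members had 27.2 CPM against 48.9 CPM. The median log2 ratio of the list was -0.12 in untagged cells. With untagged cells given to their strongest tag, 17 of the list rose and 3 fell, Phgdh, Psat1 and Ddit4. That fit called 2783 of 10069 genes higher and 2749 lower. Ddit3 was at 307 CPM in untagged members and 105 CPM in untagged others, Trib3 at 20.4 and 7.56, and Slc7a11 at 16.9 and 3.91, so these 3 were high with or without a tag.

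The antioxidant genes rose, 10 of 16, with 1 (G6pdx, not called without U2 at -0.72) lower and a median of 0.63. Hmox1, the haem oxygenase that breaks haem down to iron, biliverdin and carbon monoxide, had 348, 668 and 832 CPM in members, against 90.2, 125 and 160 CPM in the others (2.43 ± 0.16, adjusted p = 1.1e-07). The lowest tag of members was well above the highest tag of the others. Both subunits of the enzyme that starts glutathione synthesis rose: Gclc had 62.0, 70.0 and 79.4 CPM in members and 13.7, 22.4 and 23.6 CPM in the others (1.88 ± 0.14), and Gclm 111, 156 and 188 CPM against 67.9, 70.7 and 74.9 CPM (1.21 ± 0.11). Prdx1, a peroxidase, had 2764, 3043 and 3495 CPM in members and 1413, 1535 and 1657 CPM in the others (1.06 ± 0.10). The groups of these 4 genes did not overlap. Srxn1, which restores peroxiredoxins, rose by 0.81 ± 0.16. Untagged cells had the same directions, with a median of 0.68 over the list.

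Iron storage followed. Ftl1, the ferritin light chain, had 5615, 6330 and 7626 CPM in members and 1616, 2070 and 2195 CPM in the others (1.79 ± 0.11, adjusted p = 6.3e-08); its reads may be shared with the pseudogene Ftl1-ps1. Fth1, the heavy chain, had 26956, 32162 and 38392 CPM in members and 13174, 15852 and 18015 CPM in the others (1.13 ± 0.12). Both were apart in every tag. Of 12 genes of iron and haem handling, 6 rose and 2 fell, beside 16.7% and 19.6% of all genes.

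Not every stress program was higher. Of 22 chaperones and regulators of the endoplasmic reticulum stress response, 3 rose (Herpud1, Dnajb9 and Eif2ak3) and 9 fell, with a median of -0.26. Eif2ak3, which encodes the eIF2 kinase PERK, rose by 0.98 ± 0.23 but did not pass without D1 (0.76). Pdia3, a protein disulfide isomerase, had 256, 312 and 387 CPM in members, against 488, 533 and 605 CPM (-0.71 ± 0.10, adjusted p = 7.5e-05), and the lectin chaperone Calr 300, 341 and 351 CPM against 481, 562 and 594 CPM (-0.62 ± 0.09). Hspa5 (BiP), the sensor chaperone, was at 672, 960 and 1557 CPM in members and 820, 902 and 950 CPM in the others and did not pass (0.21 ± 0.12, adjusted p = 0.206 by edgeR). Without U4 it was called higher (0.35, adjusted p = 0.0396). Of 15 heat shock chaperones, 4 rose and 2 fell, with a median of 0.037, beside 16.7% of all genes higher and 19.6% lower. Beside the same shares of all genes, 3 of 17 immediate early genes rose and 6 fell, with a median of -0.19 that was 0.021 with depth bins. Junb, an AP-1 subunit, fell by 0.32 on the log2 scale, but did not pass without U2, U3, D0 or D1 (-0.32 to -0.23) or with depth bins (-0.086, adjusted p = 0.587 by edgeR), and was 0.20 higher when tumour cells had to hold at least 10 keratin UMIs.

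Targets of p53 were mixed: 7 of 20 rose and 3 fell, beside 16.7% and 19.6% of all genes. Mdm2, the ubiquitin ligase of p53, had 72.4, 93.2 and 108 CPM in members and 37.5, 53.1 and 70.5 CPM in the others (0.88 ± 0.11, adjusted p = 2.6e-05), without overlap. Cdkn1a (p21), a cell cycle inhibitor, rose by 1.11 ± 0.22 and was higher in 6 of 6 tags. Btg2, an antiproliferative target, had 76.7, 144 and 158 CPM in members, against 160, 261 and 404 CPM (-0.97 ± 0.10). Its relative Btg1 rose, with 851, 939 and 984 CPM against 342, 450 and 512 CPM (1.21 ± 0.11). Gadd45b, a relative of Gadd45a, fell by 0.53 ± 0.12 on the log2 scale and was lower in 6 of 6 tags. It did not pass by edgeR with the top 20% (-0.20, adjusted p = 0.178) or the score from 5000 UMIs per cell (-0.22, adjusted p = 0.254). With at least 10 keratin UMIs it was 0.0075 higher. Cdkn2a, the tumour suppressor locus of p16 and p19ARF, also fell (-0.86 ± 0.11).

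The small nucleolar RNA host genes had 10 of 21 listed members in the matrix, 3 of them among the 5 that chose the cells. Of the 4 others with enough counts, 3 rose and none fell. Eif4a2, a helicase of translation initiation, had 242, 303 and 320 CPM in members and 124, 163 and 170 CPM in the others (0.99 ± 0.09, adjusted p = 8.5e-07). Rack1, a ribosome scaffold, had 1709, 1896 and 2062 CPM, against 1183, 1313 and 1458 CPM (0.59 ± 0.09). Snhg20 rose by 1.01 ± 0.22. Eif4a1 did not pass (-0.11 ± 0.09, adjusted p = 0.348 by edgeR). Of 14 nonsense-mediated decay factors, 4 rose and none fell, and 2 rose with depth bins, beside 16.7% and 14.2% of all genes.

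Transcripts of the translation machinery rose together. Of 76 cytosolic ribosomal protein genes 69 rose and none fell, with a median of 0.50. They took 22.2% of the UMIs of the median member and 16.01% of the median other cell, higher in 6 of 6 tags (two-sided exact permutation test over tags, p = 0.03125, the smallest possible, adjusted p = 0.0521 over 5 measures). Rpl37 had 6181, 7378 and 8814 CPM in members, against 4551, 4760 and 4825 CPM (0.71 ± 0.10), and Rps24 6145, 6936 and 8276 CPM against 4334, 4589 and 4687 CPM (0.70 ± 0.09), both without overlap. Of 20 initiation and elongation factors, 13 rose and 2 fell, with Eef2 at 1003, 1125 and 1331 CPM in members and 781, 790 and 800 CPM in the others (0.59 ± 0.09). The nuclear long RNA Malat1 rose as well, with 34459, 38366 and 57552 CPM in members, against 19025, 24273 and 31841 CPM (0.82 ± 0.13, 0.54 with depth bins). Its list did not rise as a group: of 8 nuclear long RNAs tested 2 rose and 1 fell, with a median of 0.040. The 1 that fell was Gm42418 (-0.43 ± 0.12, and -0.083 with untagged cells given to their strongest tag). With library totals alone and no scaling factor, the median of all genes was -0.10 and 1236 genes were higher and 2174 lower.

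**Figure D4:**
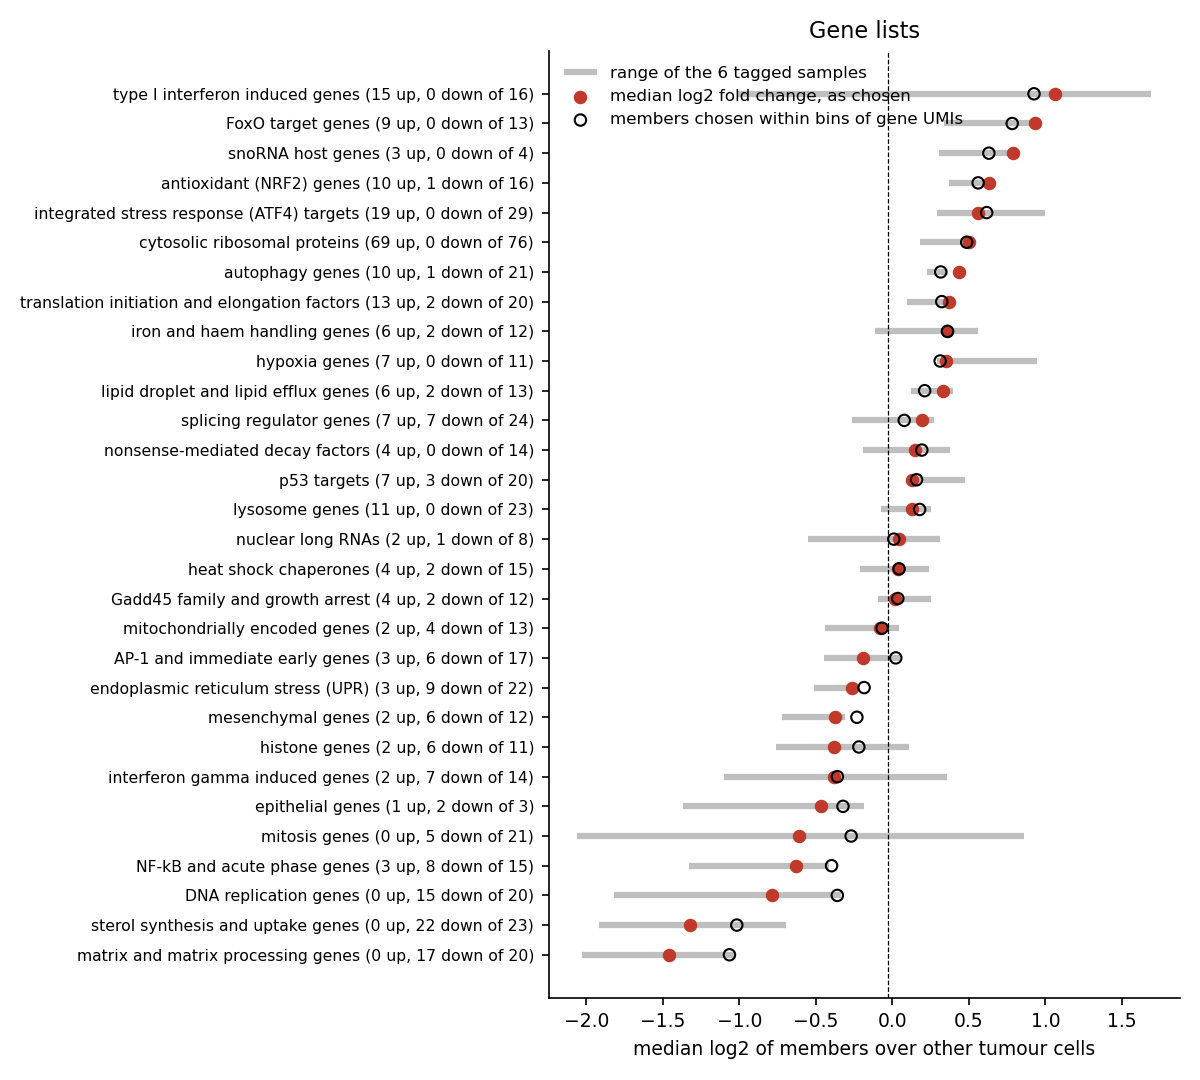
Median log2 fold change of each gene list (red), the same with members chosen within bins of gene UMIs (open circles), and the range over 6 tagged samples (grey bars, from CPM ratios); a dashed line marks the median of all genes, and labels give the genes called higher (up) and lower (down) of those tested. Sterol and matrix genes lie lowest, at -1.33 and -1.46; both lists were among the 8 added after values were seen.

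The sterol synthesis genes fell almost without exception: 22 of 23 were lower in members and none higher, with a median of -1.33 (-1.02 with depth bins). Hmgcs1, the first committed enzyme, had 32.6, 55.1 and 142 CPM in members, against 160, 269 and 299 CPM in the others (-1.90 ± 0.20, adjusted p = 4.1e-06), and the groups did not overlap. Idi1, the isomerase of isoprenoid units, had 13.1, 32.2 and 61.2 CPM in members and 125, 148 and 172 CPM in the others (-2.18 ± 0.20). Sqle, the squalene epoxidase, had 39.4, 47.7 and 115 CPM against 144, 153 and 169 CPM (-1.33 ± 0.15). The SREBP retention gene Insig1 fell by 1.45 on the log2 scale. These are genes that the factor SREBP2 turns on when cellular sterol is low. In single cells the list summed to a median of 427 CPM in members and 1503 CPM in the others, and 37 of 581 members (6.37%) were above the median other cell.
The sterol response element TCACNCCAC, searched in the same windows on both strands, was in 1.05% of all promoter entries. Counting a gene if any of its entries matched, it was in 1 of 17 listed genes with an entry. It is shown because it stands in the promoter of Hmgcs1, the match in capitals.
Hmgcs1 (chr13:119690198-119690238, plus strand): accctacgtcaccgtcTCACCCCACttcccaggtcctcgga

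Of 13 genes of lipid storage and export 6 rose, 2 fell and 5 were not called, beside 16.7% of all genes higher and 19.6% lower. Plin2, which coats lipid droplets, had 210, 289 and 401 CPM in members and 89.8, 103 and 118 CPM in the others (1.56 ± 0.12, adjusted p = 3.7e-07), without overlap. Abca1, the cholesterol exporter, had 24.1, 54.0 and 71.0 CPM in members, against 11.3, 13.7 and 28.1 CPM (1.75 ± 0.16), with groups that overlapped but higher in 6 of 6 tags. Outside that list, Enpp2 (autotaxin), which makes lysophosphatidic acid, had 35.9, 89.3 and 174 CPM in members and 11.6, 23.0 and 35.6 CPM in the others (2.12 ± 0.18).

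Lysosome and autophagy genes, the compartment of Gpr137b, rose in part. Of 23 other lysosome genes 11 rose and none fell, with a median of 0.12, beside 16.7% and 19.6% of all genes. Sqstm1 (p62), a cargo receptor of autophagy and a target of NRF2, had 558, 708 and 794 CPM in members and 214, 400 and 509 CPM in the others (adjusted p = 7.75e-05, higher in 6 of 6 tags), without overlap. Npc2, which moves cholesterol out of the lysosome, rose by 0.45 ± 0.09, and the protease gene Ctsl by 0.58 ± 0.13. Of 21 autophagy genes 10 rose and 1 fell, beside the same shares of all genes. Of 13 FoxO targets 9 rose and none fell, with a median of 0.93: Klhl24 had 63.5, 85.8 and 117 CPM in members, against 27.1, 35.5 and 46.7 CPM (1.31 ± 0.13), and the ubiquitin ligase gene Fbxo32 29.4, 33.3 and 64.4 CPM against 11.02, 15.8 and 25.8 CPM (1.49 ± 0.21). Txnip, which limits glucose uptake, had 4.38, 14.6 and 53.9 CPM in members, against 1.87, 5.33 and 6.24 CPM (1.91 ± 0.31).

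Of 11 hypoxia genes 7 rose and none fell. Ero1l, an oxidase of protein folding, had 632, 1143 and 1533 CPM in members and 359, 458 and 554 CPM in the others (1.28 ± 0.15), and Slc2a1, the glucose transporter GLUT1, 149, 243 and 336 CPM against 85.9, 100 and 121 CPM (1.36 ± 0.13). Both were without overlap. Vegfa rose by 0.35 ± 0.13, with overlapping groups, was higher in 4 of 6 tags, and did not pass without U3 (0.20), U4 (0.37), D0 (0.34) or D1 (0.39).

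Matrix genes fell as a group: 17 of 20 were lower and none higher, with a median of -1.46 (-1.07 with depth bins). Col1a1 had 0, 2.64 and 7.34 CPM in members, against 20.4, 31.2 and 64.3 CPM in the others (-3.66 ± 0.29, adjusted p = 4.0e-07). Untagged cells showed less of a gap, with 14.2 CPM in members and 32.0 CPM in the others, and the fold change was -1.94 when they were given a tag. Col3a1 had 20.7, 112 and 206 CPM in members and 353, 451 and 514 CPM in the others (-1.98 ± 0.23, -1.25 with depth bins). Timp1, the inhibitor of matrix proteases, had 434, 657 and 1227 CPM against 1735, 2095 and 2273 CPM (-1.52 ± 0.14), and Sparc 438, 762 and 1022 CPM against 1872, 1952 and 2284 CPM (-1.39 ± 0.13). All 4 were apart in every tag. Dcn, the list's most abundant gene, did not pass (-0.18 ± 0.10, adjusted p = 0.192 by edgeR), nor did Vim (-0.14 ± 0.09, adjusted p = 0.229); with library totals alone both were called lower (adjusted p = 0.042 and 0.0117). Of the 12 mesenchymal genes 6 fell and 2 rose, with a median of -0.38. The fibroblast markers that were lower in members, given above, are themselves matrix genes, and the part of RNA from other cells was not tested.

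Genes of DNA replication fell, 15 of 20, with none higher and a median of -0.79. Rrm2, a subunit of ribonucleotide reductase, had 0, 2.44 and 4.64 CPM in members, against 20.1, 24.7 and 33.6 CPM (-3.10 ± 0.26, adjusted p = 7.4e-07). Tk1, the thymidine kinase, had 2.59, 9.38 and 21.9 CPM in members and 27.5, 41.3 and 57.6 CPM in the others (-2.34 ± 0.26), and Pclaf, a partner of PCNA, 2.59, 21.3 and 52.6 CPM against 67.1, 107 and 135 CPM (-2.13 ± 0.22). Their groups did not overlap. The count moved with depth: with members chosen within depth bins 7 of the 20 were lower and 1 higher, with a median of -0.36. Of all genes, 14.2% were lower and 14.2% higher with those bins. In the fit with depth bins Rrm2 was at -1.31, Tk1 at -1.35 and Pclaf at -1.20.

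Mitosis genes gave no common result. Of 21, 5 were lower and none higher, but the median per tag ran from -2.06 to 0.86. Top2a, a DNA topoisomerase of dividing cells, had 51.7, 93.5 and 333 CPM in members and 156, 219 and 261 CPM in the others; members of U4 and D4 were above the others of their tag, at 245 and 333 CPM against 237 and 168 CPM. It did not pass (-0.69 ± 0.28, adjusted p = 0.0653 by edgeR), but was called lower without U4 (-0.85, adjusted p = 0.0388), without D4 (-1.03, adjusted p = 0.00183) and under 9 other settings. The count was 15 lower when cells with 2 or more macrophage marker UMIs were left out, where 1716 of 9333 genes were lower. It was 18 lower with untagged cells given to their strongest tag, where 2749 of 10069 genes were lower. Against others of matched depth it was 1 lower and 2 higher. That fit called 37.6% of 7625 genes, 19.0% lower and 18.6% higher.

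Inflammatory genes of the NF-kB list fell, 8 of 15, with 3 higher and a median of -0.63 (-0.40 with depth bins). That median moved with the choice of cells: it was -1.10 with the top 5% and -0.25 with the score from 5000 UMIs per cell. The chemokine gene Ccl2 had 85.4, 346 and 952 CPM in members, against 537, 1218 and 1694 CPM in the others (-1.62 ± 0.20), and Cxcl1 353, 952 and 1431 CPM against 896, 2300 and 3077 CPM (-1.23 ± 0.15). Both were lower in 6 of 6 tags, with ranges that overlapped between tags, and with depth bins they were at -1.05 and -0.68. Cxcl1 did not pass when tumour cells had to hold at least 10 keratin UMIs (-0.34, adjusted p = 0.174 by edgeR). Lcn2, an iron-binding acute phase protein that neutrophils also carry, went the other way (1.13 ± 0.33, not called by DESeq2), as S100a8 did among the neutrophil markers (2.85 ± 0.46).

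The 2 interferon programs parted in tagged cells. Of 16 genes induced by type I interferon 15 rose and none fell, with a median of 1.06. In untagged cells the median log2 ratio of that list was 1.34. Ifit1, an RNA-binding antiviral protein, had 368, 300, 197, 114, 386 and 494 CPM in members of U2, U3, U4, D0, D1 and of D4, against 83.7, 64.8, 48.8, 254, 136 and 109 CPM in the other tumour cells of these tags (1.68 ± 0.28, adjusted p = 2.5e-04). It was higher in members in 5 tags and lower in D0. Bst2 (tetherin), a membrane antiviral protein, showed the same split, rising by 0.79 ± 0.14, and in D0 it was at 767 CPM in members and 837 CPM in the others. Of 14 genes induced by interferon gamma 2 rose and 7 fell, with a median of -0.38. The median per tag ran from -1.10 to 0.35, and in untagged cells it was 0.015. With untagged cells given to their strongest tag 3 rose and 5 fell (median -0.20), where 2783 of 10069 genes were higher and 2749 lower. Irf1, an early transcription factor of the interferon gamma response, had 43.9, 93.8 and 184 CPM in members, against 102, 209 and 329 CPM (-0.97 ± 0.15, -0.61 with depth bins). B2m, the class I light chain, rose by 0.38 ± 0.09.

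The keratins are part of the gate, so their values are given with no test. Krt8 had 287, 434 and 622 CPM in members and 742, 817 and 898 CPM in the others (log2 fold change -0.85), without overlap. Krt18 had 87.6, 157 and 166 CPM against 189, 209 and 228 CPM (-0.47), but it was 0.088 higher when tumour cells had to hold at least 10 keratin UMIs, where 231 of 415 members were the same cells. Under that gate Slc7a11 (0.73), Snhg20 (0.68), Cxcl1 (-0.34), Srxn1 (0.17), Irf1 (-0.12) and B2m (0.11) did not pass. Sox9 rose by 0.50 ± 0.10. Lists not described above were mixed, beside 16.7% of all genes higher and 19.6% lower. Of 11 histone genes 2 rose and 6 fell, 7 of 24 splicing regulators rose and 7 fell. Of 13 mitochondrially encoded genes 2 rose and 4 fell.

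The ranking was nearly flat in its lower deciles for several of the genes above, and members did not stand alone at its top. From the lowest to the highest decile of tumour cells by the 5-gene score, Hmox1 was at 86.1, 102, 130, 103, 108, 118, 145, 175, 314 and 614 CPM. Ddit3 ran from 69.5 CPM in the lowest decile to 202 CPM in decile 9 and 341 CPM in members. Hmgcs1 was at 294 CPM in the lowest decile, 212 CPM in decile 8, 127 CPM in decile 9 and 60.6 CPM in members. In deciles 1 to 5 Hmgcs1 lay between 278 and 305 CPM. Col3a1 had 469 CPM in decile 7, 292 CPM in decile 8, 222 CPM in decile 9 and 129 CPM in members. Decile 9, just outside the limit, lay between the members and the rest in each of the 6 genes plotted.

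**Figure D5:**
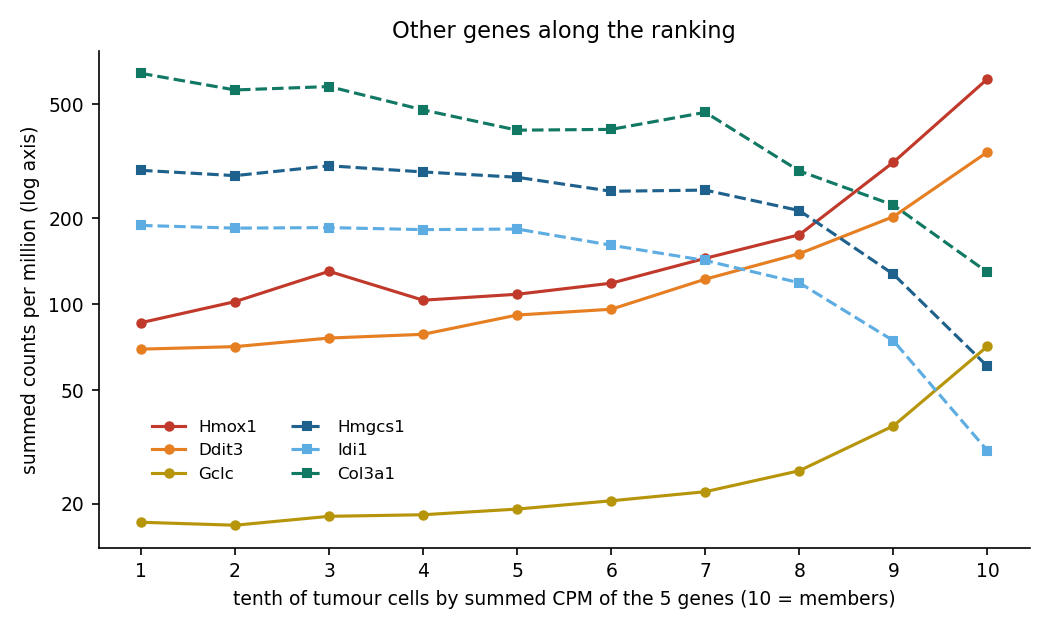
Summed CPM (log axis) of 6 genes that had no part in the score, in deciles of 5810 tumour cells ranked by the summed CPM of the 5 genes, 581 cells each; decile 10 holds the members. Hmox1, Ddit3 and Gclc (circles) are highest and Hmgcs1, Idi1 and Col3a1 (squares) lowest in decile 10; for these cells there is 1 pool and no error bar.

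Single members differed widely from each other. The stress response list summed to 2886, 4043 and 5524 CPM (lower quartile, median and upper quartile) in members and 2417, 3277 and 4261 CPM in the others, so 67.6% of members (63.7 to 71.4) were above the median other cell. For the antioxidant list that share was 72.6% (68.8 to 76.2), with quartiles of 3199 and 7270 CPM in members and 2770 and 3998 CPM in the others. For type I interferon genes it was 73.0%, for mitosis genes 24.1% and for matrix genes 12.4%. Such sums weigh abundant genes most. Over all members Prdx1 gave 3103 of the 5840 CPM of the antioxidant list. Cebpb and Nupr1 gave 1066 and 967 of the 4576 CPM of the stress response list. The fall of the sterol list was the most even of these, and the summed stress lists were high in many members and not in all.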

How the data were processed

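The matrix was deposited as UMI counts of genes and antibody tags per barcode, whole numbers with no normalization by the authors. The submitters' processing notes name Cell Ranger and mm10, and the file header gives software 3.1.0; neither states the annotation behind the counts. The matrix held 31053 genes, 6 tags and 9747 barcodes (187339115 gene UMIs), with 0 barcodes listed more than once; 8784 barcodes passed the filters. Tags were assigned with HTODemux (Seurat 5.3.0, R 4.3.3, quantile 0.99, seed 42); cells with more than 1 tag stayed among the tumour cells but out of all tests, and no doublet caller was run.

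Counts of cells with 1 tag were summed per tag into members and others (12 sums) and tested with edgeR 4.0.16 (filterByExpr, TMM factors, quasi-likelihood, tag as block, Benjamini-Hochberg over all genes but the 5 that chose the cells, threshold 0.05). Members and others with the same tag come from the same sample, which is what pairs them. The SE is the log2 fold change over the root of F. On simulated counts, 180 of 200 genes changed by a fold of 2 were recovered, with 3 false calls among 183 (9394 genes). The simulation gave every gene the same spread and changed only those 200, so its rate of false calls does not carry over to these data. Shares have exact Clopper-Pearson 95% intervals; these cover counting error only. The labels do not say that the tagged samples are separate animals. The p-values set the difference of members and others against its variation from tag to tag, which need not be variation between animals. Alternatives were DESeq2 1.42.0, other filters, scalings, scores and cell gates, and leaving out each tag.

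Named genes are the 5 genes of the score, the 12 largest and 12 smallest log2 fold changes among called genes with at least 20 CPM and the same direction in all tags, and, within each list, the 4 genes with most UMIs. Trib3, Slc7a11, Slc3a2, Asns, Aars, Vldlr, Mthfd2, Phgdh, Psat1, Psph, Ddit4, Gclm, Srxn1, G6pdx, Insig1, Cd68, S100a8, Txnip, Klhl24, Fbxo32, Cdkn1a, Gadd45b, Slc2a1, Herpud1, Dnajb9, Eif2ak3, Snhg20 and Lcn2 lie outside this rule and were chosen after their values were seen. The members, lists and tests were chosen with earlier results of these data known, and 8 of 30 lists (ribosomal proteins, sterol, iron, FoxO, autophagy, matrix, type I interferon and lipid droplet genes) and 3 alternatives (others of matched depth, no macrophage marker UMIs, no TMM factor) were added after values were seen. The share of ribosomal protein UMIs and the tag UMIs were added to the 3 planned measures of depth and quality. Tables and figures were made with Python 3.11.15.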

Additional observations from a re-analysis of the deposited data

Results flagged for a closer look

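For 65 groups of 6 tagged samples, 1 sample was compared with the other 5 by its distance from the nearest, and 6 groups had a sample that stood apart, where chance gives about 1 in 20. In U4 the log2 ratio of members to other tumour cells was 6.33 for Hist1h4i, against 0.73 to 2.64 in the other tags, and -5.67 for Ssc5d, against -3.31 to -2.04. The median of the p53 targets in U4 was 0.47, against 0.10 to 0.22 elsewhere. In U3 Pclaf was at -5.06, against -2.67 to -1.24. These rest on 20 members of U4 and 19 of U3, and Ssc5d had 0 CPM in members of U4, so its value depends on the 0.5 CPM added.

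Members of D0 stood apart in interferon genes. The median log2 ratio of the type I interferon list was -1.01 in D0, against 0.73 to 1.69 in the other 5 tags, and Ifi207, an interferon-inducible gene, was at 0.069 there, against 1.67 to 2.32. Ifit1 was at 114 CPM in members of D0 and 254 CPM in its other tumour cells, which is the highest value of the others in any tag. D0 gave 16 members. No treatment can be assigned to it, and the cause was not tested.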

How the results depend on the processing

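Against 1565 genes higher and 1840 lower, the counts were 2783 higher with untagged cells given to their strongest tag, 1182 lower with the score from 5000 UMIs per cell and 1041 lower with at least 10 keratin UMIs. Leaving out 1 tag gave 1030 to 1611 higher and 1220 to 1763 lower, lowest without U2. Of the 3405 calls, the share kept in the same direction ran from 58.0% with at least 10 keratin UMIs to 98.1% with untagged cells included, with 0 in the opposite direction under any setting. Without the replicate block the counts were 1678 and 1919 and 95.3% of calls were kept. The cause of these shifts was not tested.

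With at least 10 keratin UMIs the list medians were 0.58 for snoRNA hosts, 0.18 for AP-1, 0.24 for NRF2, -0.27 for NF-kB, 0.088 for epithelial, -0.13 for mesenchymal, -0.86 for matrix and 0.12 for lipid droplet genes, and the log2 fold changes of Junb (0.20), Krt18 (0.088), Ddit4 (0.084), Psat1 (0.043) and Gadd45b (0.0075) were above 0. With the score from 5000 UMIs they were 0.045 for AP-1, 0.52 for NRF2, 0.25 for lysosome, -0.25 for NF-kB and -1.03 for matrix genes. The top 5% gave 0.33 for lysosome, -1.10 for NF-kB, -0.55 for mesenchymal and -1.83 for matrix genes, and the top 20% gave 0.37 for NRF2, -0.26 for NF-kB, -0.19 for mesenchymal and -0.91 for matrix genes. Others of matched depth gave 0.52 for NRF2, -0.98 for NF-kB and -0.19 for mesenchymal genes. Depth bins gave 0.32 for autophagy, -1.07 for matrix and 0.21 for lipid droplet genes, a share of 10.5% for D1, and ratios of members to others of 1.02 for gene UMIs and 0.973 for genes per cell, which bins of equal depth bring near 1 by construction. No filter on low counts gave -0.61 for mesenchymal and 0.22 for lipid droplet genes, and no TMM factor 0.36 for autophagy genes. Untagged cells given a tag moved NRF2 to 0.74, ribosomal proteins to 0.63, the share of D0 to 17.9% and of D1 to 8.75%, and Hspa5 to -0.036; HTODemux at quantile 0.95 moved NRF2 to 0.80. Psat1 did not pass where it was above 0, at 0.17 with bins, 0.042 with the top 20%, 0.042 with 5000 UMIs and 0.064 with matched others, and Ddit4 was 0.023 with the top 20%.

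Leaving out each tag, the medians ran from -0.36 to -0.12 for the endoplasmic reticulum list, 0.079 to 0.27 for p53, 0.14 to 0.25 for lysosome, 0.71 to 1.05 for FoxO and 0.29 to 0.46 for lipid droplet genes. The depth ratios ran from 0.804 to 0.813 for gene UMIs and 0.823 to 0.866 for genes per cell. The 16 to 20 members in each of 4 tags limit what a single tag can show for genes of a few CPM.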
